A study of Homo sapiens with 6 samples.

Results

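The 10 genes described here code for the c-Jun N-terminal kinase (JNK) pathway and for JUN proteins: the kinase kinase kinase gene MAP3K11, the kinase kinase genes MAP2K4 and MAP2K7, the JNK genes MAPK8 and MAPK9, the scaffold genes MAPK8IP1, MAPK8IP2 and MAPK8IP3, and the transcription factor genes JUN and JUND. They were chosen by name out of 20046 protein-coding genes of the GENCODE version 44 annotation, with earlier results of the same peak lists known. Every interval of the DDX5 peak lists whose summit lay between the annotated start and end of a gene was taken. The choice used the peaks and their fold enrichments, so these values are a description and carry no test.

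The lists come from 3 DDX5_IP samples, RNA immunoprecipitates made with a DDX5 antibody (ab126730) from nuclei of RH30 cells, an established line of alveolar rhabdomyosarcoma, a muscle-lineage tumour, positive for the PAX3-FOXO1 fusion. The labels call them biological replicates, all of this 1 line, and give no treatment. The series also holds 3 INPUT samples, nuclear RNA of the same line with no antibody, whose values were not analysed here, and the protocol mentions IgG beads, for which no list was analysed either. Without them, more RNA of a gene and more RNA bound per molecule cannot be told apart. The replicate lists held 23715, 23651 and 45832 intervals on the main chromosomes in replicates 1, 2 and 3, and the sequencing depth behind them is unknown. Replicate 3 is the longest list, so its larger counts per gene stand beside that length. Of 10 muscle and rhabdomyosarcoma marker genes, among them MYOD1, MYOG and DES, 8 had a peak in every list and all 10 in at least 1. Of 7 markers of other cell types, 0 had a peak in every list and 6 had none, the exception being the endothelial marker PECAM1 with 1 peak in replicate 1 and 1 in replicate 3.

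JNK signalling is a stress-activated kinase relay. A kinase kinase kinase such as MAP3K11 activates the kinase kinases MAP2K4 and MAP2K7, these phosphorylate the JNK proteins, scaffold proteins hold the kinases together, and JNK phosphorylates JUN and JUND, which bind DNA in AP-1 dimers. DDX5 is a DEAD-box RNA helicase that works in transcription, splicing and microRNA processing. JUN is an immediate early gene with a single exon and a short-lived transcript.

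A few stretches carry the places described below. They are given from the GRCh38 genome in the direction of the transcript. Capitals mark the stretch that spans the summits of all 3 replicates, taking from each list the summit closest to those of the others. The first lies in the 3′ UTR of MAP2K7 (chr19:7913663-7913692, plus strand), the second in the 3′ UTR of MAPK9 (chr5:180235511-180235540, minus strand), the third in the 3′ UTR of JUN (chr1:58781468-58781497, minus strand) and the fourth near the end of the JUN coding sequence (chr1:58782122-58782241, minus strand), in the part that codes for the leucine zipper.
MAP2K7 3′ UTR: cccccgGAGCCTGCTGGGGTGGCcagagca
MAPK9 3′ UTR: aggtgcgtaaCACTCCATCTTaattaaata
JUN 3′ UTR: ctttgtaAGTTATTTCTTGTTTGtttgttt
JUN coding sequence: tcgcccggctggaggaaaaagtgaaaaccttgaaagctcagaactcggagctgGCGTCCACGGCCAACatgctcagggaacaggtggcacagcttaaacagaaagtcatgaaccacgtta

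The GC content of these windows ranged from AT-rich to GC-rich. It was 76.7% in the 30 bases of MAP2K7, 33.3% and 23.3% in the 3′ UTR windows of MAPK9 and JUN, and 52.5% in the 120 bases of JUN coding sequence.

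Peaks were found in 8 of the 10 genes, and 6 genes had a peak in every list: MAP3K11, MAP2K4, MAP2K7, MAPK8, MAPK9 and JUN. Across all annotated protein-coding genes 25.8% had a peak in every list, and among those with a peak in at least 1 list 49.9% did. Any peak at all, whichever list it came from, was present in 10360 of the 20046 protein-coding genes. The 10 genes were chosen with these lists in view. The counts of 8 and 6 are therefore set beside the background, and no more is read from them. JUND had peaks in 2 lists, MAPK8IP3 in 1, and MAPK8IP1 and MAPK8IP2 in none. In all there were 71 intervals, 17, 15 and 39 in replicates 1, 2 and 3, and they held 104 summits. No summit lay in the body of a second annotated gene, so none was ambiguous between gene records. The library kit was unstranded, so the strand of the RNA was not measured.

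**Figure D1:**
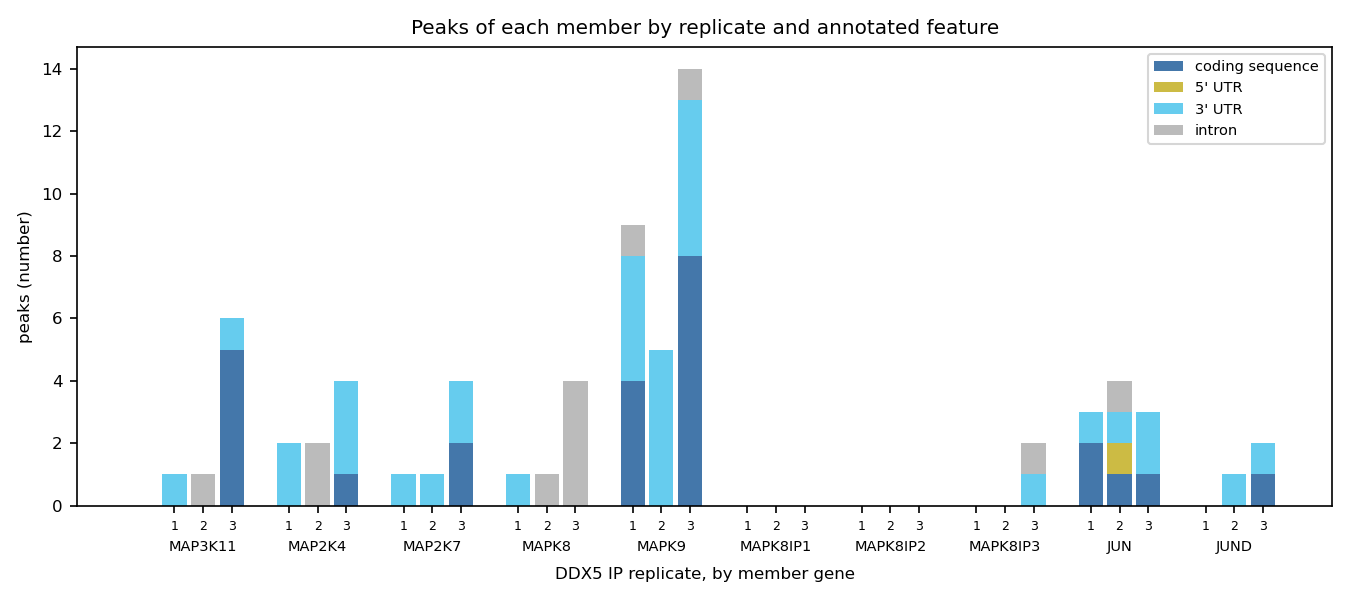
Number of peaks (y axis) of each member gene in DDX5 IP replicates 1, 2 and 3 (x axis), with colours for the annotated feature at the summit over all transcripts of the gene. MAPK9 has 9, 5 and 14 peaks, MAPK8IP1 and MAPK8IP2 have none, and MAPK8IP3 has 2 in replicate 3 alone.

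MAP2K7 had a high fold enrichment in every list, and MAP3K11, JUN, JUND and MAPK8IP3 had high values in replicate 3 alone. The fold enrichment is the authors' ratio of a peak's summit to the caller's background, and a gene is represented in each list by its peak with the highest −log10 q. Over the 6 genes with a peak in every list, the median of the mean best fold was 3.72, against 3.65 over the 5165 protein-coding genes that had peaks in all of them. Within the lists, the genes with a peak had a median best fold of 3.15 in replicate 1, 3.30 in replicate 2 and 5.64 in replicate 3 (6, 7 and 8 genes). The medians over protein-coding genes with a peak were 2.95, 3.69 and 3.59 in the same lists.

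**Figure D2:**
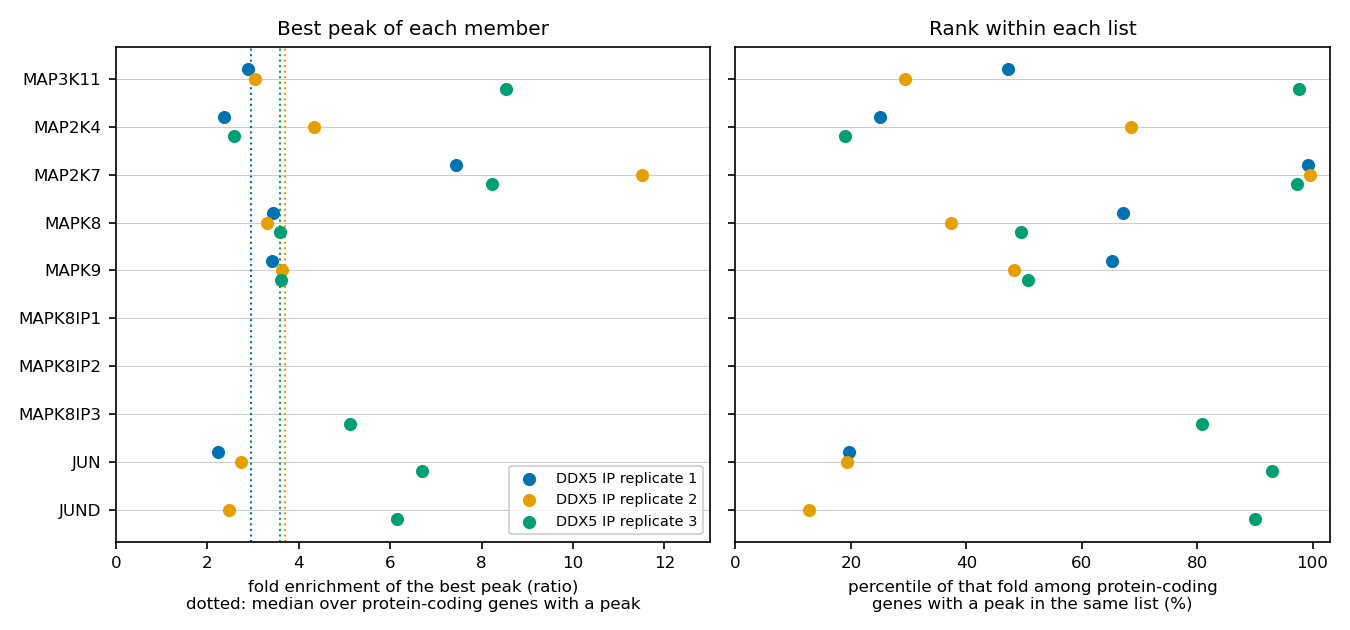
Left, fold enrichment of the best peak (x axis, ratio) of each member (y axis) in the 3 replicate lists, with dotted lines at the median over protein-coding genes with a peak in that list. Right, the percentile of that fold (x axis, %) within the list. MAP2K7 lies at or above the 97.3 percentile in every list, while JUN and MAP3K11 are high in replicate 3 alone.

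MAP2K7, which codes for a kinase kinase that activates JNK, was the member with the highest fold at any summit in each list. Its best peak by q had a fold enrichment of 7.44, 11.5 and 8.22 in replicates 1, 2 and 3, with 9.07 ± 2.18 as their mean (SD, n = 3). These values ranked at the 99.3, 99.6 and 97.3 percentiles of protein-coding genes with a peak, and the −log10 q values were 38.4, 68.3 and 54.4. MAP2K7 was the only member with a fold of at least 4 in every list. By that rule 4.22% of protein-coding genes were found in all lists, and the folds themselves were used in the choice of genes.

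The best MAP2K7 peak was the same place in all lists. The intervals on chromosome 19 ran from 7913492 to 7913743, from 7913452 to 7913754 and from 7913218 to 7913751 in replicates 1, 2 and 3. All lay in exon 11, the last of the MANE Select transcript, inside a 3′ UTR of 2047 nt. The summits were 1242, 1238 and 1254 nt after the stop codon, so the outermost were 16 nt apart, the stretch in capitals above. Over the 8626 regions of protein-coding genes found in all lists, the median distance between the outermost best summits was 84 bp. It was 210 bp over the 6 member regions, the largest distance being 949 bp in JUN, and the distance was within 50 bp in 33.3% of member regions, against 38.3% of those of protein-coding genes. In 50 bases to either side of these summits the GC content was 67.3%, 69.3% and 64.4% in replicates 1, 2 and 3, against a median of 45.5% at 3′ UTR summits of protein-coding genes.

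Replicate 3 held further MAP2K7 peaks that the other lists did not have. Summits in coding sequence had folds of 7.17 in exon 6 and 11.8 in exon 7, and a peak 96 nt from the transcript end had 3.76. The exon 7 summit had the highest fold of all 104 member summits. Its window (chr19:7911006-7911125, plus strand, capitals within 5 bases of the summit) codes for the catalytic and activation segments of the kinase domain.
MAP2K7 coding sequence: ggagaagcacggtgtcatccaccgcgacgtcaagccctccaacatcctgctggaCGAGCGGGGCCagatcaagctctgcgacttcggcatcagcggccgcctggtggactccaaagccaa

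MAP2K4, which codes for the other JNK kinase kinase, differed from MAP2K7 in level and in place. Its best peaks had folds of 2.37, 4.33 and 2.59 in replicates 1, 2 and 3, with 3.10 ± 1.07 as their mean (SD, n = 3), at the 25.1, 68.5 and 19.0 percentiles. In each list the MAP2K4 value lay below that of MAP2K7, and the ranges did not overlap. The replicate 2 peaks were both intronic, in introns 1 and 2. Those of replicates 1 and 3 lay in exons, 5 of the 6 in the 3′ UTR. One 3′ UTR place was shared by replicates 1 and 3, from 12143386 to 12143664 on chromosome 17, with folds of 2.01 and 2.59. No MAP2K4 place was shared by all lists.

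MAP3K11, the mixed lineage kinase gene at the top of the relay, had its peaks almost entirely in replicate 3. It held 1, 1 and 6 peaks in replicates 1, 2 and 3, with best folds of 2.89, 3.05 and 8.54. The mean of 4.83 ± 3.22 (SD, n = 3) was therefore set by 1 list and was 2.97 without replicate 3. The replicate 3 peaks lay in coding exons 3, 4, 5, 6 and 7 and in the 3′ UTR, with folds of 6.49, 6.32, 5.12, 3.59, 8.54 and 4.61. The replicate 1 peak lay 2 nt past the stop codon and the replicate 2 peak in intron 8. No MAP3K11 peak overlapped one of another list. The summit with the fold of 8.54 lay in exon 7 (window chr11:65605960-65606079, minus strand, capitals within 5 bases of the summit), where GC content was 68.3%.
MAP3K11 coding sequence: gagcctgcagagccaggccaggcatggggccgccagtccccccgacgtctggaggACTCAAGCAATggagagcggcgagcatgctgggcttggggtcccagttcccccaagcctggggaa

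The JNK genes MAPK8 and MAPK9 had nearly equal best folds and very different peak patterns. MAPK8, which codes for JNK1, had best folds of 3.44, 3.30 and 3.59 in replicates 1, 2 and 3 (3.44 ± 0.142, SD, n = 3). MAPK9, which codes for JNK2, had 3.41, 3.63 and 3.62 (3.55 ± 0.124, SD, n = 3). By fold, both sat near the middle of the lists, between the 37.3 and 67.2 percentiles for MAPK8 and between 48.2 and 65.2 for MAPK9. The MAPK8 and MAPK9 ranges of best fold overlapped. By −log10 q, the best MAPK8 peaks stood lower, at the 20.4, 36.4 and 18.9 percentiles in replicates 1, 2 and 3. Those of MAPK9 stood at the 87.7, 37.1 and 48.9 percentiles.

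MAPK8 held 6 peaks, 1, 1 and 4 in replicates 1, 2 and 3. The replicate 1 peak lay in the 3′ UTR, 2118 nt past the stop codon, and all 5 peaks of replicates 2 and 3 lay in intron 1, before the exon with the start codon. No MAPK8 peak overlapped one of another list. All 6 carried a pair of fold and p that 10 or more summits of the same list shared, so MAPK8 was in no list once such peaks were left out.

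MAPK9 held 28 peaks, 9, 5 and 14 in replicates 1, 2 and 3, more than any other member. Peaks with summits in exons came to 0.893, 0.558 and 1.45 per kb of exon, above the median of 0.374, 0.277 and 0.662 over the 5165 genes that had peaks in all lists. JUN, with 0.828 in each list, was also above these medians, and above MAPK9 in replicate 2. All MAPK9 intervals together, those with intronic summits included, covered 34.4%, 18.9% and 53.8% of its MANE Select transcript. In replicate 2 all 5 peaks lay in the 3′ UTR. Replicate 1 had 4 peaks annotated as coding, 4 in the 3′ UTR and 1 in an intron, and replicate 3 had 8, 5 and 1.

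The MAPK9 3′ UTR held 3 of the 6 member regions found in all lists. The summits of 1 of them lay 854, 864 and 863 nt after the stop codon in replicates 1, 2 and 3, the outermost 10 nt apart, with folds of 3.41, 2.12 and 2.55 (2.69 ± 0.656, SD, n = 3). In the region after it, the summits were 1920, 1993 and 1985 nt past the stop, with folds of 3.16, 3.00 and 2.39. The farthest region had summits at 2647, 2632 and 2710 nt, taking the closest summit of each list, with folds of 3.14, 2.59 and 2.05. A further 6 MAPK9 regions were shared by 2 lists. In 1 of them the best summits lay in intron 10, 10 bp apart, with folds of 3.29 and 3.24 in replicates 1 and 3. The replicate 1 interval there also held a summit in coding exon 11, with a fold of 2.55.

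**Figure D3:**
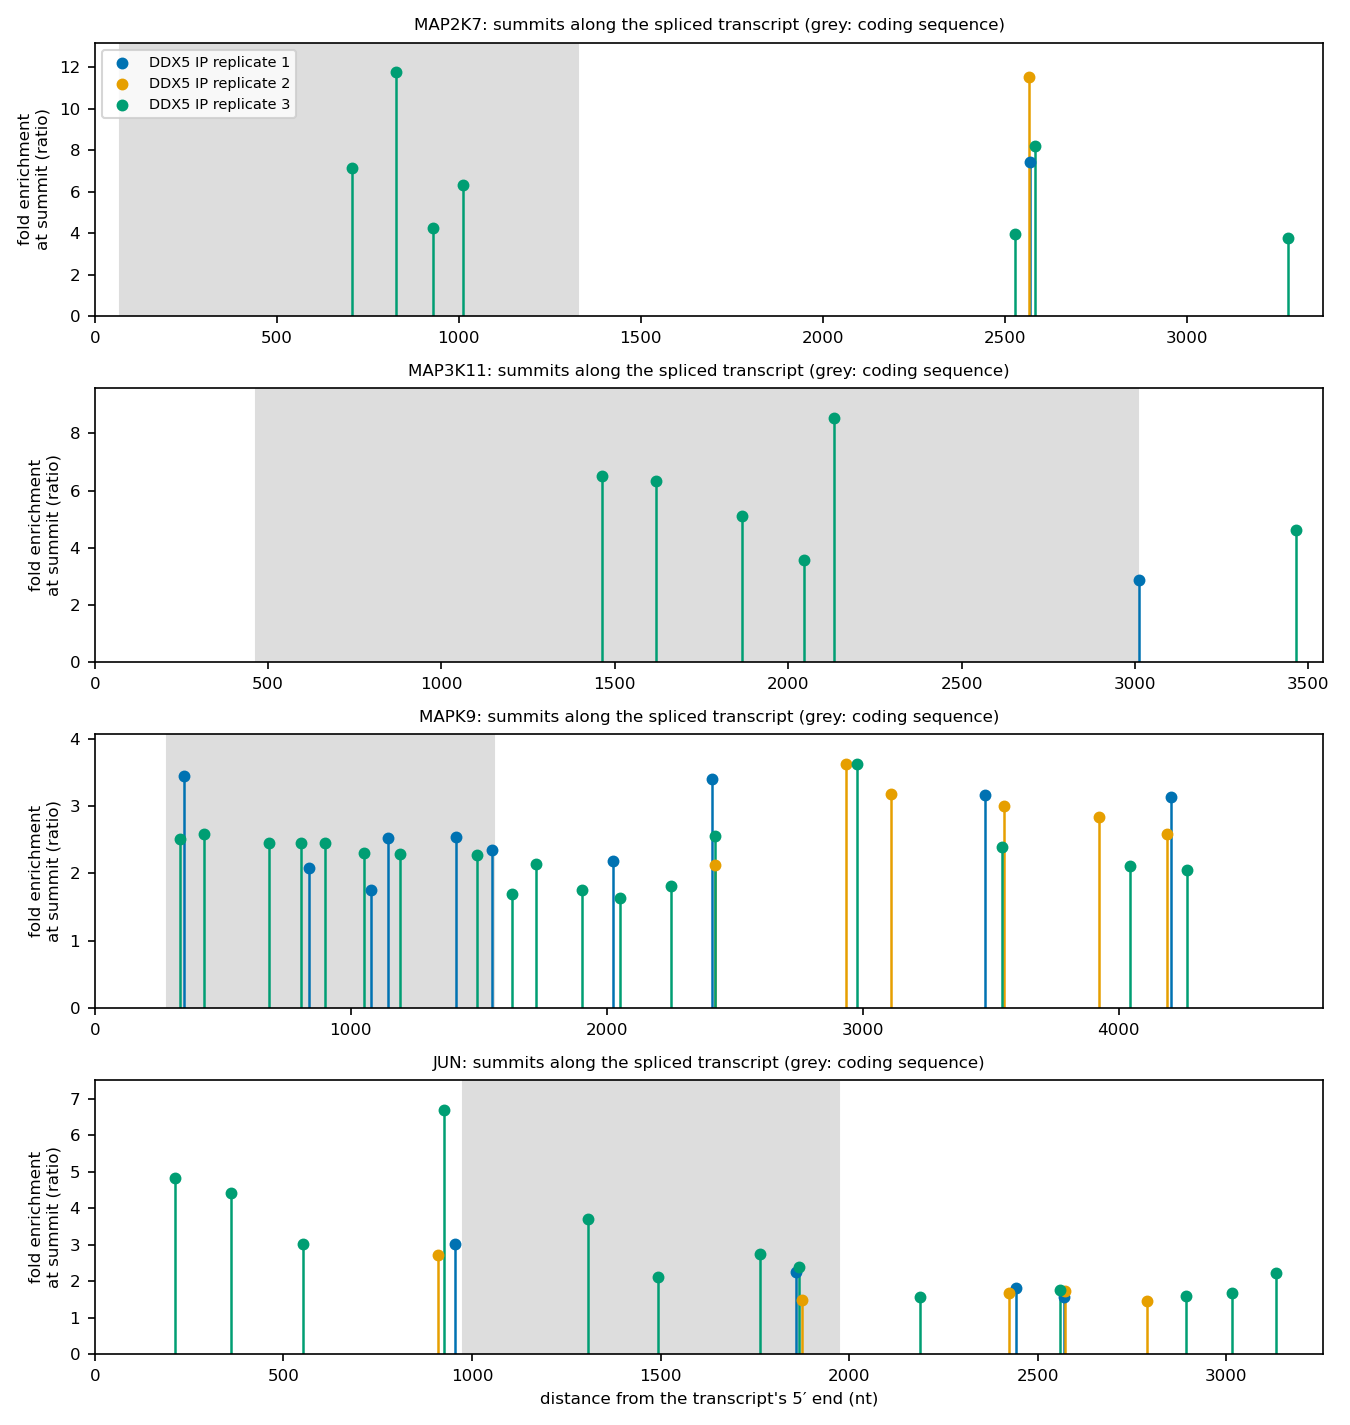
Fold enrichment (y axis, ratio) of each exonic summit against its distance from the 5′ end of the reference transcript (x axis, nt) for MAP2K7, MAP3K11, MAPK9 and JUN, coloured by replicate, with coding sequence in grey. Summits outside the exons of the reference transcript are left out. The 3 replicates meet in the 3′ UTR of MAP2K7 and at several places of MAPK9 and JUN, and MAP3K11 shows no shared place.

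The scaffold genes among the members had few or no peaks. MAPK8IP1 and MAPK8IP2, which code for the JNK-interacting proteins JIP1 and JIP2, had no summit in any list. Their reference transcripts are 3050 and 5700 nt long. A peak was also missing from every list in 9686 of the 20046 protein-coding genes. MAPK8IP3, which codes for JIP3, had 2 peaks in replicate 3 alone, with a fold of 5.12 in the 3′ UTR, 131 nt from the transcript end, and 2.56 in intron 8. Of the 18 other JNK, scaffold and phosphatase genes described below, 10 had a peak in every list and 0 had none. SPAG9, named after its values were seen, was among the 10, with 4, 2 and 8 peaks in replicates 1, 2 and 3. Without INPUT values, a missing peak cannot be told apart from a transcript that these cells make little of.

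JUN, the founding AP-1 transcription factor gene, held 3, 4 and 3 peaks in replicates 1, 2 and 3. These intervals covered 25%, 32.8% and 90.8% of its 3257 nt MANE Select transcript. Of the 4 replicate 2 peaks, 1 lay outside that single-exon transcript, with a fold of 1.93. It lay in a part of the gene body annotated as intron. In replicate 3 a single interval of 2219 bp, from 58781779 to 58783997 on chromosome 1, ran from the 3′ UTR through the coding sequence into the 5′ UTR and held 9 summits. Of the 45832 intervals of that list, 0.218% were as wide or wider. The best peaks had folds of 2.24, 2.73 and 6.70 (3.89 ± 2.45, SD, n = 3), at the 19.7, 19.4 and 93.0 percentiles, and the mean without replicate 3 was 2.48. Their −log10 q values of 10.9, 7.54 and 37.6 stood at higher percentiles, 78.8, 47.5 and 97.3.

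Each list had a summit at each of 3 places of the JUN transcript. The places were set apart after the values were seen, and at the zipper and 3′ UTR places the summit of each list closest to those of the others was taken out of several, replicate 3 having 9 in its wide interval. The best summits by q were farther apart. In the 3′ UTR region they lay 468, 600 and 1159 nt past the stop codon in replicates 1, 2 and 3, with folds of 1.80, 1.74 and 2.23 and 691 bp between the outermost. In the region joined by the wide interval the outermost were 949 bp apart. The summits nearest the start codon of the MANE Select transcript lay 22, 67 and 51 nt before it, in the 5′ UTR of that transcript, with folds of 3.02, 2.73 and 6.70 in replicates 1, 2 and 3. Part of this stretch is annotated as coding in another JUN transcript, whose coding sequence starts farther upstream. In the leucine zipper part, 113, 99 and 105 nt before the end of the stop codon, the folds were 2.24, 1.48 and 2.39. In the 3′ UTR, 596, 600 and 585 nt past the stop codon, they were 1.58, 1.74 and 1.75.

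The fold at the start codon was the highest of the 3 JUN places in each list. By −log10 q the start codon was highest in replicates 2 and 3 only. In replicate 1 the zipper part had 10.9, against 7.72 at the start codon. The mean folds were 4.15 ± 2.22 at the start codon, 2.04 ± 0.491 in the zipper part and 1.69 ± 0.0969 in the 3′ UTR (SD, n = 3). The last pair of places had overlapping values, since replicate 2 had the lower fold in the zipper part. In replicate 3 the 3 summits farther upstream in the 5′ UTR also had folds of 3.02, 4.40 and 4.82.

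JUND, a JUN relative that also has a single exon, had 0, 1 and 2 peaks in replicates 1, 2 and 3. A 3′ UTR place was shared by replicates 2 and 3, with summits at 18279964 and 18279973 on chromosome 19 and folds of 2.48 and 2.32, and the highest fold of the replicate 3 interval was 3.23. Replicate 3 also had a coding peak with a fold of 6.15, at the 90.0 percentile. Its window (chr19:18280592-18280711, minus strand, capitals within 5 bases of the summit) codes for the basic DNA-binding region.
JUND coding sequence: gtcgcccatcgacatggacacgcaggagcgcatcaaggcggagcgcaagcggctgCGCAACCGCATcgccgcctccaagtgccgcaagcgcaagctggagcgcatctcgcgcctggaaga

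Most member regions came from a single list, as did most regions of protein-coding genes. Of the 45 member regions, formed by joining intervals that shared at least 1 bp, 6 had an interval from all lists, 8 from 2 lists and 31 from 1 list, or 13.3%, 17.8% and 68.9%. Over the 60772 regions of protein-coding genes the shares were 14.2%, 21.7% and 64.1%. The 6 belonged to MAPK9 with 3, JUN with 2 and MAP2K7 with 1, so 3 of the 10 genes had such a region (1 of the JUN regions is joined by the wide replicate 3 interval), against 18.9% of protein-coding genes. Among genes with peaks in all lists it was 3 of 6 members, against 73.2% of such genes. MAP3K11, MAP2K4 and MAPK8 had a peak in every list and no region found in all of them. With q under 1e-05, MAP2K4, MAP2K7, MAPK9 and JUN had a peak in every list, against 15.1% of protein-coding genes. The same 4 genes remained when peaks with a shared pair were left out, a setting added after the data were seen under which 12.5% of protein-coding genes had a peak in every list. Such shared pairs were carried by 43 of the 71 member peaks, among them 8 of 8 in MAP3K11 and 1 of 10 in JUN, and by 60.1%, 64.9% and 72.9% of all peaks in replicates 1, 2 and 3.

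The member peaks lay mainly in 3′ UTRs and coding sequence. The 3′ UTRs held 58.8%, 53.3% and 38.5% of them in replicates 1, 2 and 3 (50.2% ± 10.5, SD, n = 3), against 42.8%, 31.1% and 25.7% of peaks in protein-coding genes (33.2% ± 8.77). Coding sequence held 35.3%, 6.67% and 46.2% (29.4% ± 20.4), against 37.2%, 28.3% and 49.6% (38.4% ± 10.7). Introns held 5.88%, 33.3% and 15.4% (18.2% ± 13.9), against 17.2%, 37.3% and 20.6% (25% ± 10.8). The 3′ UTR share of the members was above that of protein-coding genes in each list, but MAPK9 alone gave 14 of the 33 member peaks there, and the replicate ranges overlapped.

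Base composition at the member summits was close to that of other genes. The median GC content within 50 bases on each side was 48.5%, 45.5% and 49.5% at member summits in replicates 1, 2 and 3, against 48.5%, 45.5% and 47.5% at summits in protein-coding genes. It varied among the members, with medians of 64.9% for MAP2K7 and 64.4% for MAP3K11, 43.1% for MAPK9 and 38.6% for MAPK8. A run pattern of 4 stretches of GGG or longer, each 1 to 7 bases from the next, was searched on the transcript strand of these windows. It stood in 1 of 71 member windows, in the JUN 3′ UTR of replicate 1, and in 0.69% of the windows of protein-coding genes. Windows near exon ends include intron sequence.

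Other genes of the pathway were taken from 4 lists of related genes. Of 23 upstream kinase genes of the MAP3K, MAP4K and TAO families, 11 had a peak in every list and 4 in none. MAP3K3 had a best fold of 4.91 ± 1.1, TNIK 4.66 ± 0.345, MAP3K5, which codes for the stress kinase ASK1, 4.54 ± 1.25, and MAP3K9, a mixed lineage kinase gene like MAP3K11, 4.2 ± 0.593 (SD, n = 3). MAP4K4 held the most peaks of that list in replicates 1 and 2, with 18 and 20, and 25 in replicate 3, and was named after its values were seen. Of 18 other JNK, scaffold and phosphatase genes, 10 had a peak in every list. The JNK phosphatase gene DUSP16 was at 4.70 ± 1.67, the adaptor gene TRAF2 at 4.38 ± 0.601, MAPK10, which codes for the third JNK, at 3.65 ± 1.26 and DUSP22 at 3.56 ± 0.584 (SD, n = 3). The best MAPK10 peak was intronic in every list.

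Of 16 AP-1 and related transcription factor genes, 8 had a peak in every list and 4 in none. ELK1 was at 6.63 ± 2.13, FOSL2 at 4.65 ± 0.921, JUNB at 5.31 ± 2.2 and ATF7 at 3.43 ± 0.718 (SD, n = 3). JUNB, the third JUN family gene, had best folds of 2.82, 6.09 and 7.00 in replicates 1, 2 and 3. Its best peak lay in the 3′ UTR in replicate 1 and in the 5′ UTR in replicates 2 and 3. FOS, the usual partner of JUN, is named after its values were seen and had 1 peak, in replicate 2, with a fold of 1.64.

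Of 20 genes of the ERK, p38 and atypical kinase modules, 11 had a peak in every list and 6 in none. ARAF was at 5.40 ± 0.703, MAPK7 at 4.87 ± 2.47, MAP2K3, an activator of p38, at 4.13 ± 0.831, and KSR1, a scaffold of the ERK module, at 5.05 ± 2.82 (SD, n = 3). The shares with a peak in every list were 47.8%, 55.6%, 50.0% and 55.0% in these 4 lists, all above the 25.8% of protein-coding genes. That background counts every annotated gene, including 9686 that lacked any peak. It rose to 49.9% once these were left out, and the shares of the 4 lists were not computed that way. An excess over genes that had peaks was therefore not tested. The median of the mean best fold was 3.69, 3.17, 3.32 and 3.95, against the protein-coding background of 3.65. The values of 3.17 and 3.32 lay below it, and those of 3.69 and 3.95 above it.

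**Figure D4:**
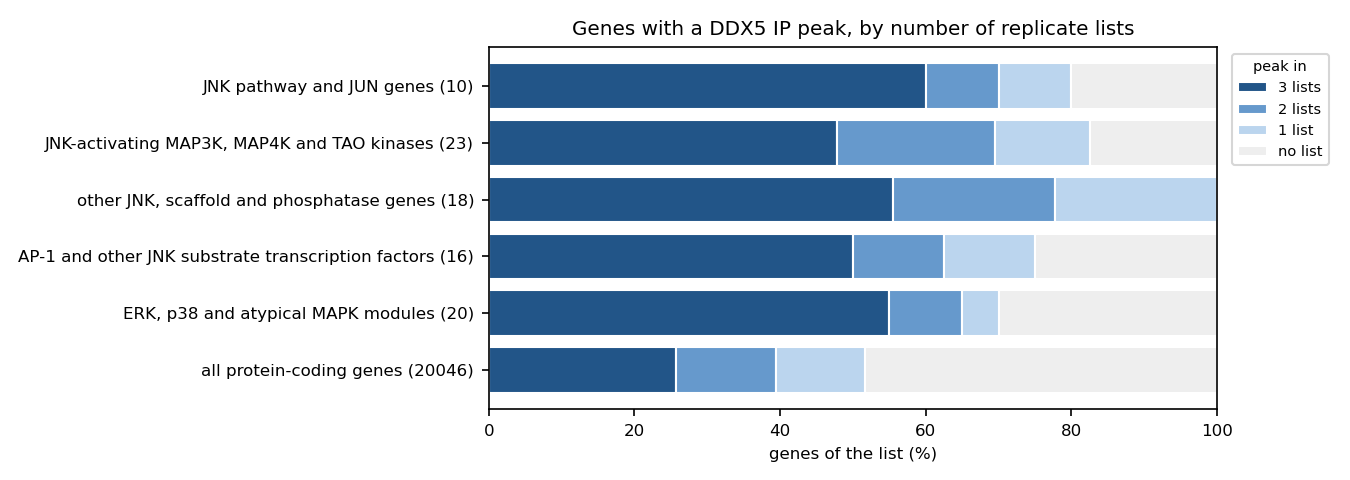
Share of genes (x axis, %) with a peak in 3, 2, 1 or no DDX5 IP list, for the 10 JNK pathway and JUN genes, 4 lists of related genes and all protein-coding genes, with the number of genes in brackets. The 5 gene lists have between 47.8% and 60% of their genes in all 3 lists, against 25.8% of protein-coding genes. The 25.8% counts every annotated gene, and it is 49.9% once genes that lack any peak are left out.

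The genes whose rank pattern was most like those of MAP2K7 and MAP3K11, the members with the highest mean percentile of best fold, were found among 5165 genes with peaks in all lists, over 3 replicates. Likeness was the mean absolute difference in percentile. For MAP2K7 they were PPDPF, at a difference of 0.647 percentile points with folds of 6.68, 9.94 and 9.02, and AGPAT1 and PPT2-EGFL8, both at 0.832 with folds of 7.74, 11.1 and 11.1. The annotated bodies of AGPAT1 and PPT2-EGFL8 overlap, and the values of both were identical. For MAP3K11 they were TIMP2, ZNF704 and SNRNP70, at differences of 4.03, 4.33 and 4.43 points. Each had its highest fold in replicate 3, at 7.13, 5.94 and 7.75, which follows from matching them to the ranks of MAP3K11.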

How the data were processed

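DDX5 RNA immunoprecipitation sequencing was analysed from 3 peak lists of RH30 nuclear extracts, 1 per sample. Per the submitters' processing notes, bcl2fastq 2.20, FastQC 0.11.8, cutadapt 1.11, STAR 2.6.1d, SAMtools 1.10, MACS2 2.2.7.1 and GRCh38 were used. The parameters and the control of the peak calls are not given in the sources used here. Libraries were unstranded, per the labels' protocols. Each interval carries the authors' fold enrichment at its summit, a ratio over the caller's background. Its p-value and q-value were deposited as −log10 values. A whole-number score was also deposited and left unused. All of these describe single peaks within a list.

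No interval on the main chromosomes ran past the end of its GRCh38 chromosome. Summits were placed in gene bodies of GENCODE 44 with Python 3.11.15 and pandas 2.3.3. Summits of 1 interval in a gene counted as 1 peak, represented by the highest −log10 q. The feature at a summit was taken over all transcripts with coding sequence before UTRs, UTRs before non-coding exons and introns last, and distances refer to the MANE Select transcript. Intervals that shared at least 1 bp were joined into regions. The members and gene lists were chosen with earlier results of these data known. The named genes are the 10 members, up to 4 genes of each wider list with a peak in every list and the highest mean percentile, and the 3 genes most like each of the 2 top members, unless marked otherwise. Gene assignment was tested on simulated peaks planted in coding sequence alone. Coding sequence comes first in the order of features, and calls of UTRs and introns were not tested. Depth is unknown, so no counting interval is given, and no test was run. Replicates come from 1 cell line.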

Additional observations from a re-analysis of the deposited data

How the results depend on the processing

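The 6 members with a peak in every list became 1 where peaks needed a fold of 4 or more and 3 where summits had to be exonic, where MAP3K11, MAP2K4 and MAPK8 lose the lists that held only intronic peaks. The count lay between 6 and 7 with 1 replicate left out. The 6 regions found in all lists became 2 at q under 1e-05, 1 at a fold of 4 or more and 0 with a reciprocal overlap of 50%, and lay between 7 and 12 with a replicate left out, when a region had to be in both remaining lists. The 12 came without replicate 2. The mean number of member peaks per list, 23.7, was 4.67 at a fold of 4 or more, 13.3 at q under 1e-05 and 11 without shared pairs, the last chosen after seeing the data, and lay between 16 and 28 with a replicate left out. Mean GC content, 48.4% with 50 bases to either side of the summit, was 46.4% with 100 bases to either side. With the lists trimmed to equal length, 5 members had a peak in every list, 4 regions were in all lists and the mean was 18.3 peaks. The shares in coding sequence, 3′ UTRs and introns and the mean best folds moved by less than 1 SD under the alternatives run for them. With a replicate left out this was bound to hold, because a mean of 2 of the 3 values always lies within 1 SD. Without replicate 3 the mean best fold fell from 4.83 to 2.97 for MAP3K11 and from 3.89 to 2.48 for JUN. Summits in a single gene body gave identical values for these results, since none lay in a second gene. Mean best folds of MAP2K4, MAPK8 and MAP3K11 have no value with exonic summits only. No paired analysis was possible because values of INPUT samples were not analysed here, so no groups were compared.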
